A study of Homo sapiens with 9 samples.

Results

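Long noncoding RNAs that are known for stress responses and growth control were followed through TP-472 treatment in A375 cells, a BRAF-mutant line derived from a human melanoma. The 8 genes were taken by name from the deposited table of 26475 gene symbols. No value entered the rule, but the genes were chosen with earlier results of these data known. They are NEAT1 and MALAT1, GAS5, SNHG1 and SNHG12, MIR22HG, PVT1 and TUG1, and all 8 passed the filter on low counts that left 16417 genes for testing. TP-472 is a compound that blocks the bromodomains of BRD9 and BRD7. A375 cells received DMSO alone or TP-472 at 5 µM or at 10 µM, and RNA was taken after 24 h in 3 libraries per group, which the series calls biological replicates. The sample labels give the same line for all groups, name no modification of it, and set the groups apart only by the agent and its dose.

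A long noncoding RNA acts as RNA, without being translated. Several of these genes work mainly as hosts: the spliced RNA is discarded or put to another use, while a small nucleolar RNA (snoRNA) or a microRNA is cut from an intron or an exon. Others stay in the nucleus at or near nuclear bodies, so their level depends on transcription, on stability and, in a sequencing library, on how the RNA was selected.

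Each library held 42483091 to 51298130 expected counts, and levels are given as CPM, counts relative to the scaled library size, over 3 libraries per group. Of the markers of the melanocyte lineage, the factor SOX10 was at 417 CPM and MITF at 31.9 CPM in DMSO, whereas the pigment markers MLANA and PMEL were at 0.173 and 1.48 CPM and TYR and DCT were at 0 in DMSO. Markers of dedifferentiated melanoma were present, with AXL at 523 CPM, and 7 markers of blood, endothelial and epithelial cells summed to 1.93 to 5.00 CPM per library. The library 10 µM replicate 1 stood apart from the other libraries at its dose, as described below, and results that rest on it are given with and without it.

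Of the 8 genes, 7 were upregulated at 10 µM against DMSO and 1, TUG1, was downregulated at an adjusted p under 0.05 in edgeR's quasi-likelihood test. Over all genes tested, 16.4% were higher and 18.0% were lower in that comparison. The number of all genes called higher fell from 2687 to between 1645 and 1729 when a DMSO library was left out. At 5 µM against DMSO only MIR22HG passed, as higher, against 4.40% of all genes higher and 5.81% lower. At 10 µM against 5 µM, NEAT1, SNHG1 and SNHG12 passed as higher, against 2.87% higher and 5.53% lower over all genes. These comparisons share libraries, so their results are not independent of each other. In RNA from whole cultures, a change in the share of cells and a change in the RNA per cell cannot be told apart.

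Without 10 µM replicate 1, the calls against DMSO at 10 µM were again 7 higher and 1 lower, while all genes stood at 23.0% higher and 25.8% lower. At 5 µM the number of genes that passed was then 4, all higher, namely NEAT1, MALAT1, MIR22HG and PVT1, against 16.5% of all genes higher and 17.6% lower. When only the 5 µM and DMSO libraries were fitted, TUG1 passed as lower beside these 4, against 19.3% higher and 20.7% lower over all genes. In the fit of 3 groups all libraries share an estimate of the spread, so the 10 µM libraries enter the test at 5 µM. The log2 fold changes of NEAT1 and MALAT1 at 5 µM were 0.28 and 0.33 both with and without 10 µM replicate 1. Their SE were 0.11 and 0.36 with it and 0.04 and 0.06 without it. At 10 µM against 5 µM without that replicate, 6 passed as higher and TUG1 passed as lower, with 8.80% of all genes higher and 15.4% lower. PVT1 did not pass there (adjusted p = 0.0823 in edgeR). The other libraries of that dose moved this count too. Without 10 µM replicate 2 it was 7, of which 6 were higher, against 3.33% higher and 6.25% lower over all genes, and without replicate 3 it was 5, all higher, against 2.85% and 5.31%.

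**Figure D1:**
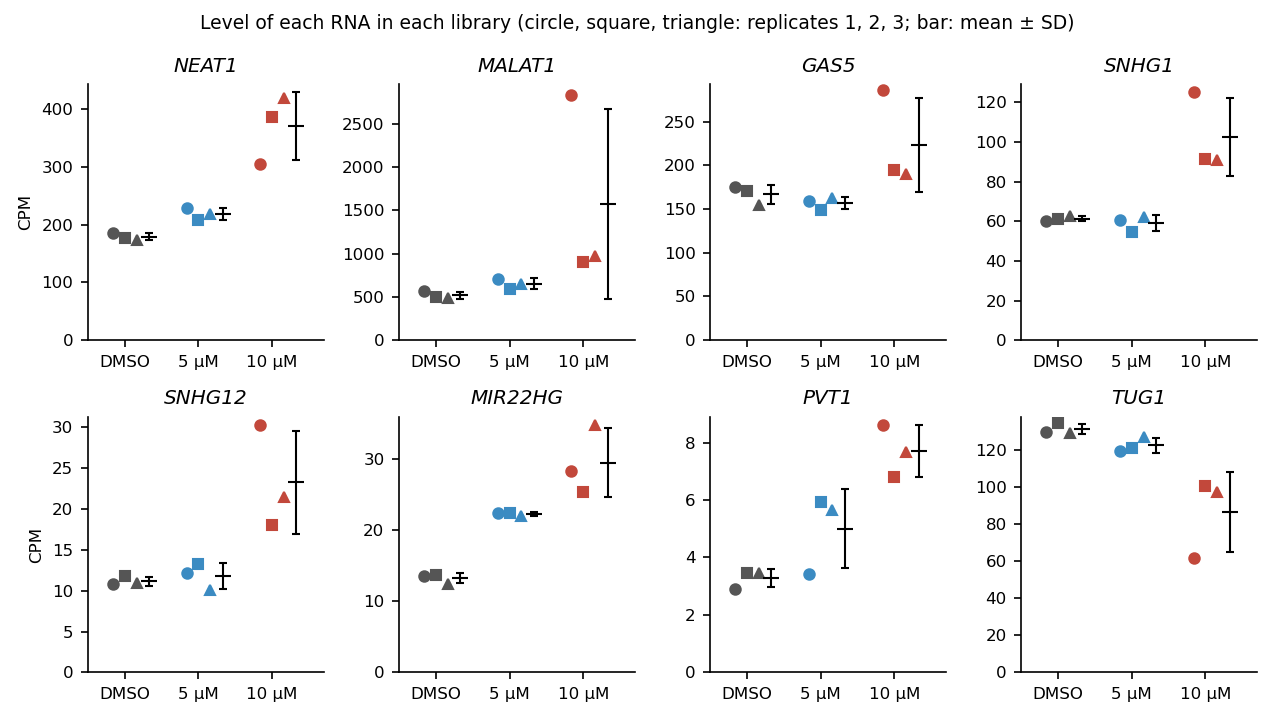
Level in CPM (linear axis from 0) of each of the 8 genes in each of the 9 libraries, with circles, squares and triangles for replicates 1, 2 and 3 and a bar for the mean and SD of 3 libraries. The 10 µM libraries lie above all DMSO libraries for 7 genes and below them for TUG1, and MALAT1 in 10 µM replicate 1 lies at 2837 CPM against 904 and 977 CPM in the other libraries at that dose.

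NEAT1 is the RNA around which paraspeckles, a kind of nuclear body, are built. It is made as a short polyadenylated form and a long form whose end is cut by RNase P and not polyadenylated, and the counts per gene do not separate them. It lies at chr11:65422774-65445540 on the plus strand of GRCh38. In DMSO it measured 186, 177 and 174 CPM. Cells treated with 5 µM held 228, 208 and 218 CPM and cells treated with 10 µM held 305, 387 and 420 CPM. The groups followed the dose without any overlap. The log2 fold change at 10 µM against DMSO was 1.05 (SE 0.11, adjusted p = 7.73e-05 in edgeR), a 2.07-fold difference. Between 5 µM and 10 µM NEAT1 rose by a further log2 of 0.76 (adjusted p = 0.00262 in edgeR). At 5 µM against DMSO the log2 difference was 0.28 (adjusted p = 0.137 in edgeR), which passed without 10 µM replicate 1 (adjusted p = 1.04e-04 in edgeR).

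MALAT1, a neighbour of NEAT1 on the same strand, is a nuclear RNA of splicing speckles and is among the most abundant noncoding RNAs of many cells. It lies at chr11:65497688-65506516, with a gap of 52147 bases between the genes. DMSO libraries held 567, 494 and 493 CPM and 5 µM libraries held 712, 587 and 654 CPM. At 10 µM replicates 2 and 3 held 904 and 977 CPM, and replicate 1 held 2837 CPM, 3.02 times their mean. All 10 µM libraries were above all others, but the SD at 10 µM was 69.7% of the mean. The log2 fold change at 10 µM against DMSO was 1.60 (SE 0.37, adjusted p = 0.00810 in edgeR). Without replicate 1 it was 0.86 (SE 0.07, adjusted p = 4.74e-08 in edgeR), a fold of 1.81 in place of 3.04. At 5 µM MALAT1 differed by 0.33 (adjusted p = 0.666 in edgeR with all libraries and 6.88e-04 without 10 µM replicate 1).

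The 3′ ends of NEAT1 and MALAT1 are shown because they bear on how both RNAs are captured. Both long transcripts end just before a tRNA-like small RNA that RNase P cuts away, and they end in a stretch rich in A that is encoded in the genome instead of an added poly(A) tail. The last 60 bases before each small RNA follow, read from the transcripts of GENCODE release 29 (GRCh38, plus strand), with runs of at least 4 A in capitals. The NEAT1 window is chr11:65445481-65445540 and the MALAT1 window is chr11:65506057-65506116, while the annotated MALAT1 gene runs on past its small RNA.
NEAT1: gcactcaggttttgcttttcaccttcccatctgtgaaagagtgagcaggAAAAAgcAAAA
MALAT1: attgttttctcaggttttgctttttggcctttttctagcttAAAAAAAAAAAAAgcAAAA
The windows share a run of 16 bases, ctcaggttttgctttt, which ends 41 bases before the end in NEAT1 and 36 bases before it in MALAT1. In the last 20 bases there were 11 A in NEAT1 and 17 in MALAT1, with longest runs of 5 and 13. Inside the long NEAT1 transcript 5 runs of at least 10 A occurred, the longest of 22 bases, and TUG1 held 1 run of 18. The other 5 genes held none of that length in their longest transcripts.

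How the RNA was selected could not be settled. The methods describe purification on oligo-dT beads, which holds RNAs by a run of A, and the design text of the series describes depletion of ribosomal RNA. The share of counts on ribosomal RNA genes was 8.20% to 19.9% per library, with the lowest share in 10 µM replicate 1 and the highest in 10 µM replicate 3. RNAs that normally lack a poly(A) tail were few in the counts: for 18 small noncoding RNAs the sum was 112 to 184 CPM with DMSO, 118 to 164 CPM with 5 µM and 157 to 197 CPM with 10 µM. Most of this came from the RNA of the signal recognition particle, and the other 16 reached 5.21 to 7.12 CPM with DMSO, 7.00 to 16.0 CPM with 5 µM and 46.8, 22.3 and 28.2 CPM in replicates 1, 2 and 3 of 10 µM. The highest of these, as for MALAT1, was 10 µM replicate 1. RN7SK, a short nuclear RNA that restrains transcription elongation, held 3.00, 2.22 and 2.36 CPM in DMSO, 8.48, 5.38 and 4.25 CPM at 5 µM and 32.2, 16.4 and 19.1 CPM at 10 µM. It rose by a log2 of 3.16 at 10 µM (adjusted p = 6.91e-05 in edgeR) and did so without replicate 1 (log2 2.81, adjusted p = 5.38e-08 in edgeR). Of the 26 genes in this list 15 were tested, of which 9 were higher at 10 µM and the other 6 did not pass. Over all genes 16.4% were higher. The 9 were RN7SK, RPPH1, SNORD3A and 6 histone genes, of which some also make polyadenylated RNA. Those histone genes with the smallest p were HIST2H2BE (log2 2.21), HIST1H2AC (1.84) and HIST1H1C (2.54), while HIST1H4H had the largest rise (3.22). Without replicate 1, 8 were higher, against 23.0% over all genes, and RPPH1 did not pass. The part of RNA selection in the levels of NEAT1 and MALAT1 was not tested. With the ribosomal RNAs and the RNAs of this list left out before scaling, the 8 genes gave the same number of calls against DMSO at each dose.

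GAS5, SNHG1 and SNHG12 host snoRNAs that guide the modification of ribosomal RNA and other RNAs. Their spliced RNAs are known targets of nonsense-mediated decay, the pathway that degrades RNAs with an early stop codon, and their levels are known to respond to growth and translation. All 3 rose at 10 µM and did not pass at 5 µM.

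GAS5, named for its rise in growth-arrested cells, lies on the minus strand of chromosome 1 from 173863900 to 173868882. It held 175, 170.2 and 155 CPM in DMSO, 159, 149 and 162 CPM at 5 µM, and 286, 194 and 190.1 CPM at 10 µM. The first 2 groups overlapped, and the 10 µM libraries lay above them, by the widest margin in replicate 1. Its log2 fold change at 10 µM was 0.42 (SE 0.14, adjusted p = 0.0435 in edgeR). This was the least certain of the calls at 10 µM: it was lost in 9 of 20 alternative settings, in which the adjusted p reached 0.151 (edgeR). Without 10 µM replicate 1 the change was 0.20 (SE 0.05, adjusted p = 0.00404 in edgeR).

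SNHG1 lies on the minus strand of chromosome 11 from 62851988 to 62855914. In DMSO it held 60.2, 60.9 and 62.6 CPM, in 5 µM TP-472 60.6, 54.3 and 62.3 CPM, and in 10 µM TP-472 125, 91.3 and 90.9 CPM. Its 10 µM libraries were all above both other groups. The log2 fold change was 0.74 at 10 µM against DMSO (SE 0.12, adjusted p = 0.00139 in edgeR) and 0.80 against 5 µM (SE 0.12, adjusted p = 0.00440 in edgeR). Without 10 µM replicate 1, the highest of the 10 µM libraries, these were 0.57 (adjusted p = 8.13e-07 in edgeR) and 0.62 (adjusted p = 1.42e-06 in edgeR). At 5 µM the difference from DMSO was -0.05, with a 95% interval of -0.33 to 0.22.

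SNHG12, on the minus strand of chromosome 1 from 28578538 to 28583132, was lower in level. It held 10.8, 11.8 and 10.9 CPM in DMSO, 12.2, 13.2 and 10.1 CPM at 5 µM, and 30.3, 18.0 and 21.5 CPM at 10 µM. Again the first 2 groups overlapped and the 10 µM libraries stood above them. Its log2 fold change at 10 µM was 1.06 (SE 0.18, adjusted p = 0.00167 in edgeR), or 0.82 without replicate 1 (adjusted p = 3.18e-05 in edgeR). Against 5 µM the change was 0.98 (adjusted p = 0.0110 in edgeR), a call that was lost when only these groups were fitted (adjusted p = 0.0538 in edgeR).

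The small RNAs that the 8 genes host were hardly covered. Of 29 in the table, 19 were at 0 in every library, the highest count in any library was 49, for SNORA61 of SNHG12, and of the 4 tested 0 passed in any comparison in edgeR, with 0 at an unadjusted p under 0.05 and 0 in DESeq2. Their levels are too low in these libraries to be set beside those of the hosts. The values above therefore describe the host RNAs and not the snoRNAs or microRNAs.

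Among the other snoRNA hosts some rose at 10 µM. Of 26 listed, 21 were in the table and 19 were tested, and at 10 µM 7 were higher and 12 did not pass, against 16.4% higher over all genes, with a median log2 fold change of 0.31 against 0.01 over all genes. SNHG15 rose by 0.92 (adjusted p = 0.00171), SNHG17 by 0.62 (adjusted p = 0.00364) and SNHG11 by 0.57 (adjusted p = 0.00615, all in edgeR). At 5 µM 0 of the 19 passed in edgeR and 0 in DESeq2, with 1 higher and 1 lower at an unadjusted p under 0.05 in edgeR and a median of -0.04. Without 10 µM replicate 1, 7 were higher at 10 µM and 2 were lower, SNHG7 (log2 -0.31) and SNHG3 (-0.32), against 23.0% and 25.8% over all genes, and the median was 0.22. The same fit called 1 of them, SNHG9, higher at 5 µM (1.04) and SNHG7 (-0.29) and SNHG3 (-0.31) lower. Of 10 factors of nonsense-mediated decay, 3 were higher at 10 µM and 7 did not pass, against 16.4% higher over all genes, the 3 being SMG5 (log2 0.29), UPF3B (0.60) and UPF3A (0.42), and the median of the list was 0.19. Leaving out 10 µM replicate 1 gave 6 higher of the 10 at 10 µM, against 23.0% over all genes. SMG5 was then at 0.33, UPF3B at 0.32 and UPF3A at 0.24.

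MIR22HG carries miR-22 in an exon and is known to respond to many kinds of stress. It lies on the minus strand of chromosome 17 from 1711493 to 1717174. The mature microRNAs are shown because the RNA measured here is their precursor. The RefSeq records (GRCh38.p14) give both arms of the hairpin, at chr17:1713914-1713935 for the 3p arm and chr17:1713952-1713973 for the 5p arm, each on the minus strand and 22 bases long. Capitals mark the seed, bases 2 to 8, which pairs with target RNAs.
hsa-miR-22-3p: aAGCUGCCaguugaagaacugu
hsa-miR-22-5p: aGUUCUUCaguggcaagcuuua
The arms have different seeds. Neither mature arm was measured by these libraries.

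MIR22HG held 13.6, 13.7 and 12.5 CPM in DMSO. At 5 µM it held 22.4, 22.4 and 22.0 CPM and at 10 µM 28.3, 25.4 and 34.8 CPM. The 3 groups were separated, and the spread at 5 µM was small, with an SD of 0.227 CPM. MIR22HG was the gene of the 8 that passed at both doses, with log2 fold changes of 0.75 at 5 µM (SE 0.12, adjusted p = 0.00320) and 1.16 at 10 µM (SE 0.12, adjusted p = 6.31e-05, both in edgeR). It passed at both doses in all 20 alternative settings. From 5 µM to 10 µM it differed by 0.41 (adjusted p = 0.0572 in edgeR), which passed without 10 µM replicate 1 (0.43, adjusted p = 0.00734 in edgeR).

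The other microRNA hosts that passed were lower. Of 22 listed, 16 were in the table and 13 were tested, and at 10 µM 5 were lower and 8 did not pass, against 18.0% lower over all genes, with a median log2 fold change of -0.46. MIR210HG, the host of the hypoxia-linked miR-210, fell by 2.40 on the log2 scale (adjusted p = 7.63e-04 in edgeR), or by 3.09 without 10 µM replicate 1 (adjusted p = 8.51e-10 in edgeR). MIR100HG fell by 0.38 (adjusted p = 0.00188 in edgeR) and MIR4697HG fell by 0.70 (adjusted p = 0.00686 in edgeR). At 5 µM 1 of the 13, MIR100HG, was lower, against 5.81% lower over all genes. With 10 µM replicate 1 left out, 9 were lower at 10 µM and 4 at 5 µM, against 25.8% and 17.6% lower over all genes.

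TUG1, a mostly nuclear RNA first described as induced by taurine and transcribed away from MORC2, was the gene that fell. It lies on the plus strand of chromosome 22 from 30969245 to 30979395. DMSO libraries held 129.5, 134 and 129 CPM, 5 µM libraries 119, 121 and 127 CPM, and 10 µM libraries 61.5, 100.4 and 97.4 CPM. The groups did not overlap, and the lowest value was that of 10 µM replicate 1. Its log2 fold change at 10 µM was -0.60 (SE 0.15, adjusted p = 0.0140 in edgeR), a 1.51-fold lower level, and -0.41 without replicate 1 (SE 0.05, adjusted p = 2.03e-06 in edgeR). At 5 µM the difference of -0.10 did not pass (adjusted p = 0.777 in edgeR).

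PVT1 is transcribed downstream of the oncogene MYC and is known both as a partner of MYC in amplified tumours and as a p53-induced RNA. It lies on the plus strand of chromosome 8 from 127794533 to 128101253. Its level was the lowest of the 8, with 2.92, 3.46 and 3.45 CPM in DMSO, 3.42, 5.93 and 5.67 CPM at 5 µM, and 8.61, 6.81 and 7.66 CPM at 10 µM. At 5 µM replicate 1 lay within the DMSO range and the other replicates above it, and all 10 µM libraries stood above both groups. The log2 fold change at 10 µM was 1.23 (SE 0.22, adjusted p = 0.00187 in edgeR). At 5 µM it was 0.61 (SE 0.22, adjusted p = 0.108 in edgeR), and it passed without 5 µM replicate 1 (0.82, adjusted p = 0.0267 in edgeR) and without 10 µM replicate 1 (adjusted p = 0.0238 in edgeR). MYC itself held 14.8, 13.7 and 14.7 CPM in DMSO, 10.6, 13.2 and 12.6 CPM at 5 µM and 18.6, 20.0 and 14.4 CPM at 10 µM. Its DMSO and 10 µM libraries overlapped, and its log2 difference of 0.29 at 10 µM did not pass (adjusted p = 0.123 in edgeR). Against 5 µM, MYC was higher at 10 µM by 0.54 (adjusted p = 0.0387 in edgeR), and by 0.50 without 10 µM replicate 1 (adjusted p = 0.0105 in edgeR).

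**Figure D2:**
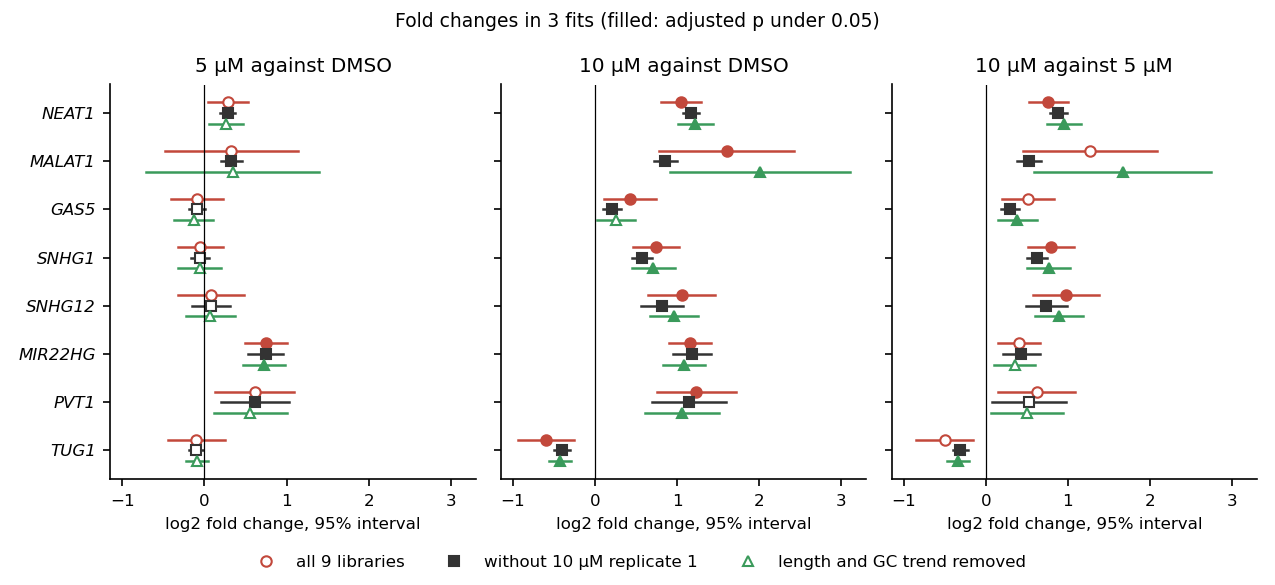
Log2 fold changes of the 8 genes with 95% intervals in 3 comparisons, from the fit of all 9 libraries (circles), without 10 µM replicate 1 (squares) and after removal of a trend with length and GC content (triangles), filled where the adjusted p is under 0.05. All 8 genes keep their direction at 10 µM against DMSO in the 3 fits, GAS5 does not pass with the trend removed, and the interval of MALAT1 narrows when 10 µM replicate 1 is left out.

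Transcript length went with the way 10 µM replicate 1 differed from its group. Genes whose mean reached 1 CPM were ordered by the length of their longest GENCODE transcript and divided into 5 classes of like size, and the log2 of each library over the mean of the other libraries of its group was taken. For 10 µM replicate 1 the median deviation was 0.46 in the shortest class (up to 2135 bases) and -0.48 in the longest (5988 bases or more), with 0.20, -0.03 and -0.20 in between. In the 6 libraries of DMSO and 5 µM all medians lay between -0.03 and 0.04.

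The short RNAs among the 8 were high in that library. The deviation of 10 µM replicate 1 was 0.57 for GAS5 (longest transcript 1698 bases), 0.62 for SNHG12 (1998 bases), 0.46 for SNHG1 (2768 bases) and 0.25 for PVT1 (1699 bases), and it was -0.07 for MIR22HG (2626 bases). Among the long RNAs it was -0.69 for TUG1 (7469 bases) and -0.40 for NEAT1 (22743 bases). MALAT1 (8708 bases), at 1.59, went against the other long RNAs. These directions are those of the length classes for TUG1, NEAT1, GAS5, SNHG12, SNHG1 and PVT1 and the opposite for MALAT1 and MIR22HG.

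**Figure D3:**
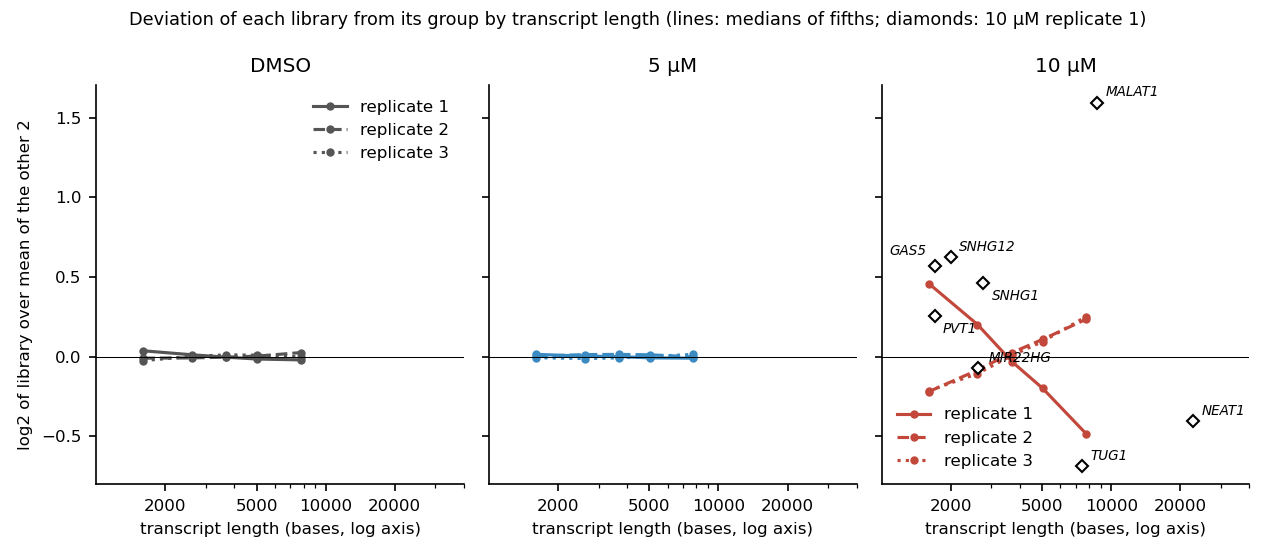
Log2 of each library over the mean of the other libraries of its group, as medians of 5 classes of genes by transcript length (log axis, in bases), with the 8 genes in 10 µM replicate 1 as diamonds. Lines for DMSO and 5 µM lie near 0, that of 10 µM replicate 1 falls from 0.46 to -0.48, and MALAT1 lies at 1.59.

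Comparisons at 10 µM carried some of the same pattern. Over all genes the median log2 fold change at 10 µM against DMSO was 0.19 in the shortest class and -0.16 in the longest, and 0.02 and -0.03 without replicate 1. With the trend with length and GC content removed from each library, the change at 10 µM was 1.22 for NEAT1, 0.71 for SNHG1, 0.96 for SNHG12, 1.08 for MIR22HG, 1.06 for PVT1 and -0.43 for TUG1, which all passed. GAS5 changed to 0.26 and did not pass (adjusted p = 0.0767 in edgeR). MALAT1 changed to 2.01 (SE 0.49, adjusted p = 0.00770 in edgeR), with its high value in 10 µM replicate 1 included. Without that library, and with no trend removed, its change was 0.86.

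Per length of the longest transcript the 8 RNAs could be ordered. In CPM per kilobase of the longest transcript, the DMSO means ± SD of 3 libraries were 98.1 ± 6.16 for GAS5, 59.5 ± 4.90 for MALAT1, 22.1 ± 0.451 for SNHG1, 17.5 ± 0.364 for TUG1, 7.88 ± 0.264 for NEAT1, 5.60 ± 0.275 for SNHG12, 5.04 ± 0.256 for MIR22HG and 1.93 ± 0.182 for PVT1. No neighbours in this order overlapped in DMSO. At 10 µM MALAT1 (181 ± 126) and GAS5 (132 ± 31.7) overlapped, as did NEAT1 (16.3 ± 2.61) with SNHG12 (11.6 ± 3.16), SNHG12 with TUG1 (11.6 ± 2.90) and TUG1 with MIR22HG (11.2 ± 1.83). MIR22HG stood above SNHG12 at 5 µM (8.47 ± 0.0864 against 5.91 ± 0.807), without overlap and in the reverse of their order in DMSO. For NEAT1, whose short form is counted with the long one, the value per kilobase depends on which form was present. The other genes have shorter annotated transcripts too, of 389 to 1998 bases for SNHG12 and 450 to 2626 for MIR22HG. Close ranks such as those of these genes therefore depend on the transcript taken.

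RNAs of paraspeckle proteins were followed beside NEAT1. All 20 listed were tested, of which 2 were higher and 7 lower at 10 µM, with a median log2 fold change of -0.14, against 16.4% higher and 18.0% lower over all genes. The splicing regulators HNRNPA1 and RBMX fell by 0.68 (adjusted p = 7.91e-05 in edgeR) and by 0.66 (adjusted p = 2.72e-05 in edgeR), and HNRNPUL1 fell by 0.45 (adjusted p = 4.13e-04 in edgeR). NONO, a core protein of the body, fell by 0.24 (adjusted p = 0.0103 in edgeR), while SFPQ, its partner, was at -0.11 (adjusted p = 0.174 in edgeR), and it passed as lower without 10 µM replicate 1 (-0.11, adjusted p = 0.0122 in edgeR). RBM14 was higher by 0.28. At 5 µM 4 were lower and 16 did not pass, against 5.81% lower over all genes. With 10 µM replicate 1 left out, 3 were higher and 9 lower at 5 µM, against 16.5% and 17.6% over all genes, and 3 were higher and 14 lower at 10 µM, against 23.0% and 25.8%.

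Genes beside the 8 were also measured, since noncoding RNAs often share promoters or enhancers with them. SLC3A2, the heavy chain of amino acid transporters, starts 187 bases from SNHG1 on the other strand. It held 188, 188 and 195 CPM in DMSO, 277, 295 and 285 CPM at 5 µM, and 502, 393 and 397 CPM at 10 µM. It rose by a log2 of 0.58 at 5 µM (adjusted p = 0.00431 in edgeR), where SNHG1 differed by -0.05, and by 1.18 at 10 µM (adjusted p = 1.59e-05 in edgeR). LTBP3, a matrix protein that binds latent TGF-beta and lies 32288 bases from MALAT1, fell by 0.94 (adjusted p = 8.14e-06 in edgeR), from a mean of 639.9 to 333 CPM.

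The remaining neighbours varied. TLCD2 and WDR81, beside MIR22HG, were higher by 0.56 and 0.35 at 5 µM and by 0.26 and 0.28 at 10 µM, and passed at both doses. For TLCD2 the adjusted p was 0.00218 at 5 µM and 0.0310 at 10 µM (edgeR). For WDR81 it lay close to the threshold, at 0.0491 and 0.0480 (edgeR). FRMD8, beside NEAT1, was higher by 0.32 at 5 µM (adjusted p = 0.0190 in edgeR) and did not pass at 10 µM (0.18, adjusted p = 0.0731 in edgeR), but did so without 10 µM replicate 1 (0.13, adjusted p = 0.0365 in edgeR). ZBTB37, whose gene body overlaps GAS5, was at 1.14 (adjusted p = 0.0597 in edgeR), with 1.78 CPM in 10 µM replicate 1 and 6.23 and 5.09 CPM in the other replicates, and it passed without replicate 1 (1.51, adjusted p = 1.68e-04 in edgeR). MORC2 at -0.19 and TRNAU1AP at -0.08 did not pass at 10 µM either. In all, 3 of the 10 neighbours were higher and 1 lower at 10 µM, with a median of 0.22, against 16.4% and 18.0% over all genes, and 4 were higher and 1 lower at 5 µM, against 4.40% and 5.81%. When 10 µM replicate 1 was left out, 5 were higher and 1 lower at 10 µM, against 23.0% and 25.8%. The libraries were made strand-specific, but use of strand in the counting was not stated, and exons on the other strand of any single gene covered at most 5.38% of the exonic bases of a gene among the 8, namely of TUG1.

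Other long noncoding RNAs were measured in the same way. Of 10 that are linked to p53, 4 were tested and 3 were higher at 10 µM, against 16.4% higher over all genes. They were LINC-PINT (log2 0.70), LINC01021 (1.65) and TP53TG1 (1.28). LINC01021 and TP53TG1 were higher at 5 µM as well, against 4.40% higher over all genes. For comparison, all of 10 protein-coding p53 targets were higher at both doses, against the same shares. At 10 µM MDM2 was at a log2 of 2.71, CDKN1A at 2.30 and BTG2 at 2.26. Of 26 further noncoding RNAs, 19 were tested, and 2 were higher and 4 lower at 10 µM, with a median of -0.16, against the 16.4% and 18.0% over all genes. UCA1, known from bladder cancer, rose by 2.75 (adjusted p = 8.31e-08 in edgeR), from a mean of 115 to 772 CPM. TMPO-AS1 fell by 2.07 (adjusted p = 4.40e-04 in edgeR) and FGD5-AS1 fell by 0.60 (adjusted p = 0.00256 in edgeR). The counts at 10 µM without replicate 1 were 3 higher of the p53-linked RNAs and 3 higher and 5 lower of the further ones. Over all genes 23.0% were higher and 25.8% lower in that fit.

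**Figure D4:**
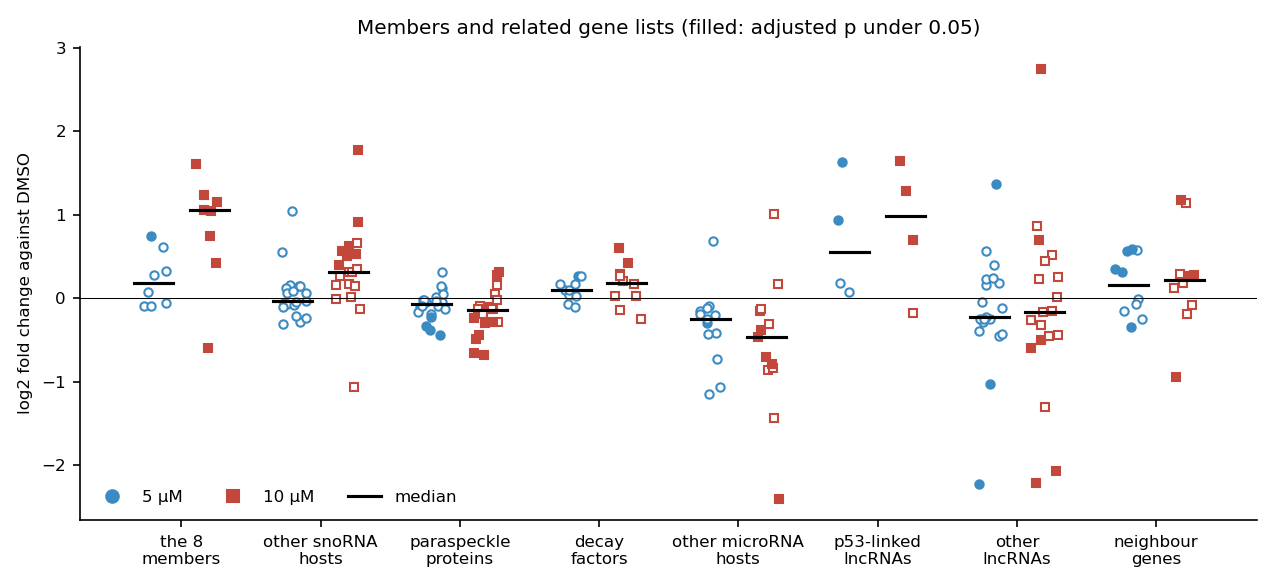
Log2 fold changes against DMSO of the 8 genes and of 7 related lists at 5 µM (circles) and 10 µM (squares), filled where the adjusted p is under 0.05, with the median of each list as a bar. At 10 µM 7 of the 8 genes lie above 0, the medians of the other snoRNA hosts and of the other microRNA hosts are 0.31 and -0.46, and that of the paraspeckle proteins is -0.14.

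Genes with the most similar pattern were found by Pearson's r of log2 CPM over the 9 libraries among the 13670 genes whose mean reached 1 CPM. The libraries share 3 doses and include 10 µM replicate 1, so r describes both. The leading genes for NEAT1 were HDAC9, RND3 and PMAIP1 (r = 0.988, 0.987 and 0.986), and for MIR22HG GPAT3, MYH14 and C18orf8 (0.989, 0.988 and 0.987). For the snoRNA hosts they were MRPL10, ZFAS1 and CNBP for GAS5 (0.984, 0.984 and 0.983), DAP3, MB21D2 and CIR1 for SNHG1 (0.985, 0.984 and 0.981), and SNHG15, SRRD and SEC22A for SNHG12 (0.986, 0.985 and 0.972). ZFAS1 and SNHG15 are themselves snoRNA hosts.

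MALAT1 was most like C14orf2, BYSL and SMIM7 (r = 0.994, 0.994 and 0.993), PVT1 like DXO, MLLT11 and UCKL1-AS1 (r from 0.970 to 0.979), and TUG1 like DENND4B, PPFIBP1 and PCNT (0.998, 0.995 and 0.995). Among the 8 themselves r ran from 0.48, for GAS5 and MIR22HG, to 0.94 between pairs without TUG1. Between NEAT1 and MALAT1 it was 0.64 over 9 libraries and 0.97 without 10 µM replicate 1, which was low for NEAT1 and high for MALAT1. TUG1 ran opposite to each of the others, with r from -0.99 to -0.66.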

How the data were processed

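For 9 libraries the authors deposited RSEM expected counts by gene symbol, without any scaling. The submitters' processing notes name RSEM 1.2.15, Bowtie2 2.1.0 and hg38. The methods describe strand-specific libraries; the annotation, and whether counting used strand, were not stated. Between 10.6% and 13.8% of values per library were not whole (tolerance 0.001), and all were rounded. All 9 libraries were fitted as 3 groups in edgeR 4.0.16 (R 4.3.3), with TMM factors (0.957 to 1.03), filterByExpr, the quasi-likelihood F test and Benjamini-Hochberg adjustment over 16417 genes. Genes passed at an adjusted p under 0.05. CPM use the scaled library sizes. For its experiments in general the study used Student's t-test, without mention of the sequencing comparison, and a count model was used here because the values are counts.

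The 8 genes, the related lists and the alternatives were chosen with earlier results of these data known. Genes named from a list are the 3 with the smallest p at 10 µM against DMSO, the neighbours, and for each of the 8 the 3 most similar genes. SFPQ, NONO, RBM14, SNHG3, SNHG7 and SNHG9 and the remaining called histone and small RNA genes were named after their values were seen. The results for 2 genes of the lists are not reported here. Alternatives were other scaling, other filters, DESeq2 1.42.0, limma-voom (limma 3.58.1), a replicate block, fits of only 2 groups, removal of ribosomal and other RNAs without a poly(A) tail, removal of a length and GC trend (splines of 4 degrees of freedom, 15323 genes) and each library left out. Positions and lengths are from GENCODE release 29, which held 23900 of the 26475 symbols. In simulated counts in which 200 genes differed 3-fold, the comparisons of 5 µM and of 10 µM with DMSO recovered 157 and 154 of them, and that of both doses recovered 168. False calls numbered 3, 7 and 9. The simulation held no library that departed by length as 10 µM replicate 1 did. It does not give the recovery of changes smaller than 3-fold. Tables and plots were made with Python 3.11.15, pandas 2.3.3, numpy 2.4.6 and matplotlib 3.10.9.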

Additional observations from a re-analysis of the deposited data

How the results depend on the processing

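The number of the 8 genes that passed at 10 µM against DMSO was 7 or 8 in every alternative. At 5 µM it was 1, and it rose to 5 when only those groups were fitted and to 5 with the length and GC trend removed without 10 µM replicate 1, a setting chosen after seeing the data. With each library left out in turn it ran from 1 to 4, with 2 without 5 µM replicate 1 and 4 without 10 µM replicate 1. At 10 µM against 5 µM it was 3, and it was 8 in DESeq2, 6 with the trend removed, 7 with the trend removed without 10 µM replicate 1, and 2 to 7 with each library left out, namely 7, 7 and 5 without 10 µM replicates 1, 2 and 3 and 2 without 5 µM replicate 3. Without 5 µM replicate 2 the changes of SNHG1 and SNHG12 at 5 µM turned sign, to 0.0039 and -0.0097; with each library left out they ran from -0.094 to 0.0039 and from -0.0097 to 0.18. Of 480 fold changes of single genes under alternatives, 429 kept direction and call, 38 gained a call, 11 lost it and 2 turned. The number of all genes that passed at 5 µM, 722 higher and 954 lower, was 3051 and 3280 with only 2 groups, 2770 and 2951 without 10 µM replicate 1, 1217 and 1463 in DESeq2, and 263 to 352 and 410 to 503 without any 1 library of DMSO or 5 µM. At 10 µM it was 2687 and 2947, with 1645 to 1729 and 2127 to 2157 without any 1 DMSO library. At 10 µM against 5 µM it was 471 and 908, against 114 and 221 with only 2 groups, 1474 and 2576 without 10 µM replicate 1 1080 and 1382 in DESeq2, and 146 to 247 and 388 to 531 without any 1 library of DMSO or 5 µM. In the fits of 3 groups all libraries shared an estimate of the spread, so a count also depends on libraries outside its comparison. The causes of the differing counts were not tested.

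Replicate numbers did not pair the libraries: deviations of same-numbered libraries correlated at -0.05 to 0.03. With the replicate block, 1, 8 and 3 of the 8 genes passed in the 3 comparisons, as without it. Depth limits PVT1 most, at 145 counts in its lowest library, and the hosted small RNAs, which cannot be followed here.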
